A study of Mus musculus with 6 samples.

Results

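Imprinted genes were followed in serum-starved NIH3T3 cells, a mouse embryonic fibroblast line, by setting 3 libraries of RAI16 knockout cells against 3 libraries of wild-type cells. The members are 39 imprinted genes taken by symbol, of which 31 are among the 16000 genes of the count table and 8 are not listed. Enough reads for a test were found for 19 of the 31, and the other 12 were at or near 0. All 6 libraries were made with a stranded mRNA kit from total RNA of serum-starved cells, and the groups differ in the labels by genotype (Rai16 KO and WT) alone. Neither the knockout's lesion nor the number of cultures or clones behind a group is labelled. The spread between libraries may therefore be technical.

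Genomic imprinting marks a gene by the parent it came from, so that a single parental copy is transcribed. In most cases the mark is DNA methylation set in the egg or sperm at an imprinting control region. That methylation is kept through cell division by factors such as ZFP57, TRIM28 and DNMT1. Imprinted genes lie in domains that share a control region, and in mouse many of them act on fetal growth, placenta and behaviour. Some are imprinted in every tissue and others only in placenta or neurons. Read counts per gene do not separate the parental copies, so every level below is the sum over both.

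The members with the largest falls are known as genes read from the paternal copy, as are 10 of the 19 tested. Which copy is read in these cells was not measured, here or below. The promoters of 3 members with large falls are shown with that of a neighbour that fell less. Ndn and Peg12, which lie in the same domain on chromosome 7 and fell to near 0, and Mkrn3, which lies between them and kept more of its level, are given with Plagl1 of chromosome 10. Each sequence is a RefSeq promoter window of GRCm38.p6, from 250 bases before the transcript start to 50 bases after it, and the capitals mark CG dinucleotides, the sites of methylation.
Ndn (GRCm38.p6, chr7:62348027-62348326, plus strand): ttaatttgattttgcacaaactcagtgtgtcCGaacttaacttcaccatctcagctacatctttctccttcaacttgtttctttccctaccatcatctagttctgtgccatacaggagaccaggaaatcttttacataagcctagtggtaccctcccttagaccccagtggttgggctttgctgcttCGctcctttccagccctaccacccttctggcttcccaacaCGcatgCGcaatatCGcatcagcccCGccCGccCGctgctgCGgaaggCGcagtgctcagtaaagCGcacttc
Mkrn3 (GRCm38.p6, chr7:62420104-62420403, minus strand): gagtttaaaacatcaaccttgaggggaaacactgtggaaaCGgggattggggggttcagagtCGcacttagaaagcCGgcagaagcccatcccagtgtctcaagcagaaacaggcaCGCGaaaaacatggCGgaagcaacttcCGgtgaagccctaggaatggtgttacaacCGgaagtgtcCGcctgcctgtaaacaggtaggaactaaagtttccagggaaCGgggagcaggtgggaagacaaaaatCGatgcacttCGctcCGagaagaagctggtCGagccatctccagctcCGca
Peg12 (GRCm38.p6, chr7:62464461-62464760, minus strand): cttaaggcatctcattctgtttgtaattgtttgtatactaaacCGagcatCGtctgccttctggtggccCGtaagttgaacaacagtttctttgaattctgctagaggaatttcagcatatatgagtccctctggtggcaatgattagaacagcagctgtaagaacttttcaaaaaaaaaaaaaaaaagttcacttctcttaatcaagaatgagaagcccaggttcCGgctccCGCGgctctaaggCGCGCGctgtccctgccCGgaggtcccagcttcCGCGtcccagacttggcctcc
Plagl1 (GRCm38.p6, chr10:13090582-13090881, plus strand): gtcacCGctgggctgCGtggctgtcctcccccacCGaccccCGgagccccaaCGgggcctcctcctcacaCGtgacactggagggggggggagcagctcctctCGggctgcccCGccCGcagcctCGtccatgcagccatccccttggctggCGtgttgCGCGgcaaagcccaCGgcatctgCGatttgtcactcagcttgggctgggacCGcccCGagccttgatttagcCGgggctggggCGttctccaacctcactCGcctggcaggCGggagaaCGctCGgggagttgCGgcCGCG

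These windows hold 11 CG dinucleotides in Ndn, 15 in Mkrn3, 12 in Peg12 and 26 in Plagl1. The median is 14.5 over the 50 windows of the 33 members found in the table, and 7 over all 32851 windows. The motif TGCCGC, which ZFP57 reads when methylated and which contains a CG, was searched on both strands. It was found once among the printed windows, in Plagl1 on the opposite strand from base 161. Of the 50 member windows 12 held it, and of all windows 11.6% did. Of the members 9 have more than 1 window, and windows of Gnas and of Mest overlap.

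A level is the CPM, a count relative to the library's TMM-scaled total, and a fold change is log2 of knockout over wild type ± SE from edgeR's fit of all 11972 genes with enough reads. Calls are by edgeR's quasi-likelihood test at 0.05 after Benjamini-Hochberg adjustment. The members were chosen by name with their fold changes in this same comparison known, so their fold changes are a description and nothing is inferred from their counts. Library totals ran from 16741607 to 18368760 counts, and knockout replicate 2 stood apart from knockout replicates 1 and 3 on the second principal component, which held 5.90% of the variance. The targeted gene, listed as Fam160b2, had 22.2, 21.5 and 21.9 CPM in the knockout libraries and 25.4, 22.5 and 23.6 CPM in the wild-type libraries. Its log2 fold change of −0.12 ± 0.075 did not pass, and such a count would not show a short deletion. Fibroblast markers were abundant, with all 10 listed and sums of 19109 to 22388 CPM in knockout and 22955 to 23422 CPM in wild type. The largest part of these sums was Fn1, which was called lower, with means of 9192 CPM in knockout and 13978 CPM in wild type. Of the 10, 5 were called higher, 2 lower and 3 not called, beside 59.6% of all genes called. Of 10 neuron markers 7 were listed, summing to 5.01 to 7.32 CPM in knockout and 18.8 to 21.0 CPM in wild type. Most of that difference lay in Map2, with a mean of 1.91 CPM in knockout and 13.1 CPM in wild type. Syp was also called lower, with means of 0.386 CPM in knockout and 0.778 CPM in wild type, and Snap25 was not called. Of 10 trophoblast markers 4 were listed, with sums of 971 to 1125 CPM in knockout and 2179 to 2248 CPM in wild type that came almost wholly from Prl2c2. Of 10 epithelial markers 6 were listed, summing to 4.12 to 5.23 CPM in knockout and 1.32 to 2.25 CPM in wild type. The rise was in Krt8, with a mean of 4.35 CPM in knockout and 1.05 CPM in wild type. The other listed epithelial markers were near 0 in both groups, with lower knockout means for Cdh1, Krt18 and Ocln. Tubb3, Nefl, Tpbpa, Prl3d1, Cdx2 and Epcam were not listed. The part of these markers in the results was not tested. In bulk RNA, fewer cells that read a gene and less RNA per cell cannot be told apart.

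Of the 19 members tested, 7 were higher and 9 lower in knockout, and 3 were not called. Over all genes tested 59.6% were called, 30.5% higher and 29.2% lower, and nothing is read from the members' share. None of the 7 was higher by 2-fold or more (4.32% of all genes were), and 4 of the 9 were lower by 2-fold or more (6.53% of all genes). Those 4 were Ndn, Igf2, Peg12 and Plagl1. The median log2 fold change was 0.05 over the 19 and 0.0028 over all genes. CPM of the groups did not overlap in 16 of the 19, against 67.6% of all genes.

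**Figure D1:**
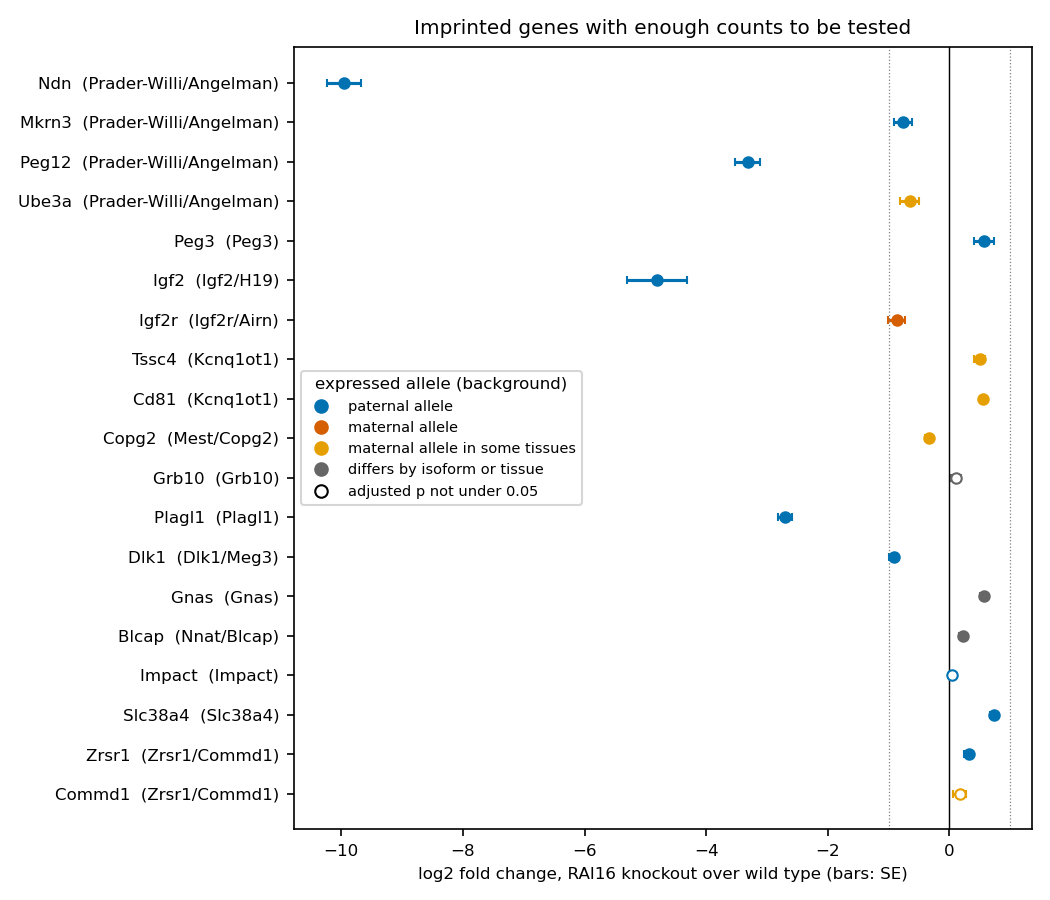
Log2 fold change of RAI16 knockout over wild type for the 19 imprinted genes with enough counts to be tested, by gene and domain, with SE bars and dotted lines at 2-fold; open points did not pass an adjusted p of 0.05. Ndn, Igf2, Peg12 and Plagl1 lie far to the left and no gene passes 2-fold on the right; the fitted value of Ndn rests on a single knockout count.

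In the Prader-Willi and Angelman domain of chromosome 7 every member with enough reads fell, and Ndn fell to a single read. Ndn encodes necdin, a MAGE family protein known for restraining growth and for roles in neurons. It had 0, 1 and 0 counts in knockout replicates 1, 2 and 3, against 414, 453 and 425 counts in wild-type replicates 1, 2 and 3. In CPM this is 0, 0.0545 and 0 in knockout and 23.9, 27.1 and 24.4 in wild type. Every knockout library was at or next to 0 and every wild-type library was near the same level. The ratio of summed counts, knockout over wild type, was 0.000729 (95% counting interval 1.85e-05 to 0.00407). The fitted log2 fold change depends on how the single count is treated, and it was −9.95 with all libraries and −11.78 without knockout replicate 2, which held that count.

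Peg12, which encodes a FRAT family protein that acts in Wnt signalling, fell about as evenly. It had 0.542, 0.545 and 0.900 CPM in knockout, from 10, 10 and 16 counts. In wild type it had 6.70, 6.89 and 6.32 CPM, from 116, 115 and 110 counts. The groups lay far apart, and the log2 fold change was −3.32 ± 0.21. Unlike Ndn, each knockout library kept at least 10 reads.

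Mkrn3, a makorin ubiquitin ligase gene known for restraining puberty, lies between Ndn and Peg12 and fell less. It had 2.55, 2.89 and 2.98 CPM in knockout, against 4.27, 4.97 and 5.05 CPM in wild type. The groups did not overlap, and the log2 fold change was −0.76 ± 0.15. Snrpn, the gene for a splicing protein and host of the domain's control region, was barely read in either group. It had 0 counts in each knockout library and 2, 2 and 5 counts in the wild-type libraries. The ratio of its summed counts, knockout over wild type, was 0 (95% counting interval 0 to 0.477). Taken at an assumed floor of 3 counts over the knockout group, its level was 3.18-fold lower in knockout. That value leaves out the counting error of the wild-type counts and is not a lower bound. Snrpn was too low for the test. Magel2, a MAGE family gene beside Ndn, is not listed.

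Ube3a encodes the ubiquitin ligase lost in Angelman syndrome and is imprinted in neurons only. It had 88.4, 56.3 and 89.7 CPM in knockout, against 119, 125 and 125 CPM in wild type. Knockout replicate 2 was the lowest of the 6 libraries, and all knockout libraries lay below all wild-type libraries. The log2 fold change was −0.66 ± 0.15, and −0.47 without knockout replicate 2. The neighbours of the domain also leaned down. The 5 nearest tested genes on each side, none of them members, had log2 fold changes from −0.73 to −0.05 with a median of −0.37. Among them is Atp10a, which is on the list of other imprinted genes, at −0.30 ± 0.080. Of these 10 genes 0 rose, 8 fell and 0 changed by 2-fold or more, where 30.5% of all genes were called higher and 29.2% lower.

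**Figure D2:**
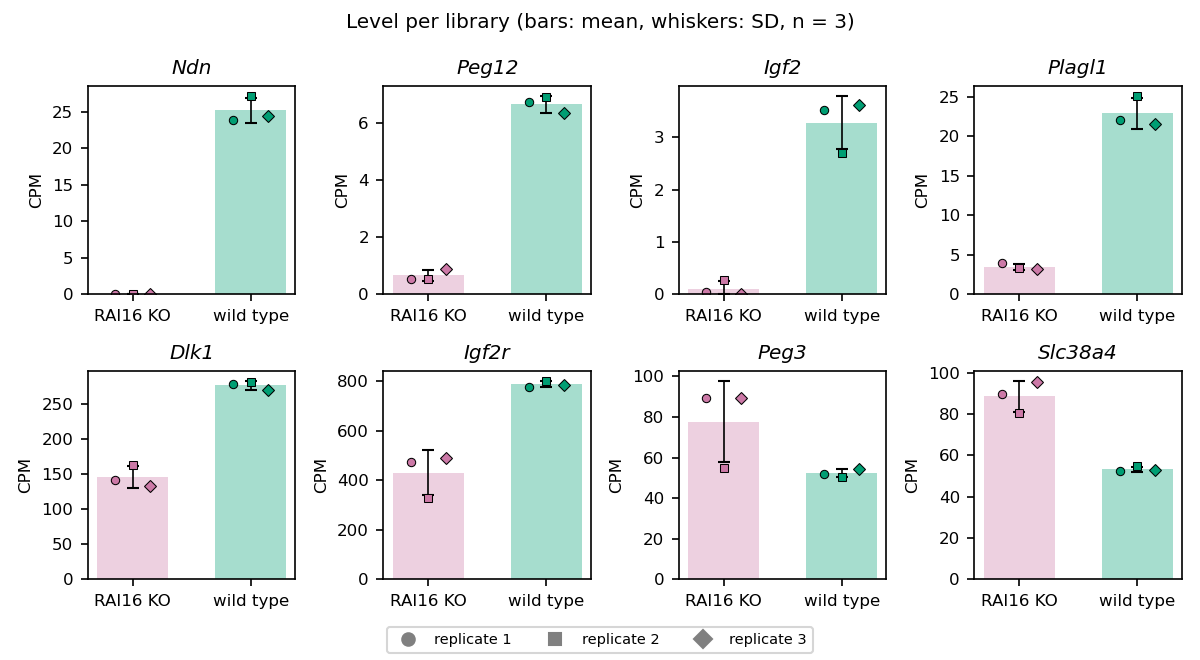
CPM in each library for 8 imprinted genes, with bars for the mean and whiskers for the SD of 3 libraries, knockout on the left and wild type on the right of each panel; each panel has its own axis from 0. Ndn, Peg12, Igf2 and Plagl1 are near the bottom in all knockout libraries, and knockout replicate 2 is the lowest knockout library for Igf2r, Peg3 and Slc38a4.

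Growth factor signalling by Igf2 is controlled by imprinted genes on both sides: Igf2 is the ligand, read from the paternal copy, and Igf2r, read from the maternal copy in mouse, is the receptor that carries it to lysosomes. Both were lower in knockout. Igf2 had 0.0542, 0.272 and 0 CPM in knockout, from 1, 5 and 0 counts, against 3.52, 2.70 and 3.62 CPM in wild type. It was thus a low gene in both groups. The groups did not overlap, and the log2 fold change was −4.81 ± 0.49. Its ratio of summed counts was 0.0335 (95% counting interval 0.0121 to 0.0743). Without knockout replicate 2, which held 5 of its 6 knockout counts, the fitted value was −6.56. H19, the noncoding RNA that shares its enhancers, is not listed.

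Igf2r had 473, 327 and 491 CPM in knockout, against 775, 800 and 784 CPM in wild type. The wild-type libraries lay close together and knockout replicate 2 was again the lowest. The log2 fold change was −0.87 ± 0.13, and −0.71 without knockout replicate 2. Airn, the antisense RNA that silences the paternal copy of Igf2r, is not listed. The sources used here give no strand setting for the counting, and without one reads of the overlapping Airn could count for Igf2r. Grb10, an adaptor protein that dampens insulin and IGF receptor signals, is read from the maternal copy in most tissues and from the paternal copy in neurons. It averaged 501 ± 54.1 CPM in knockout and 466 ± 3.84 CPM in wild type (SD, n = 3 each). On the log2 scale it stood at 0.10 ± 0.079 (95% interval −0.08 to 0.28) and was not called, whereas without knockout replicate 2 it was 0.19 and was called.

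Plagl1 and Dlk1, both read from the paternal copy, fell. Plagl1 (ZAC1) encodes a zinc-finger factor known in mouse to act on a network of other imprinted genes, Igf2 among them. It had 3.96, 3.38 and 3.21 CPM in knockout, against 22.1, 25.1 and 21.5 CPM in wild type. No library of either group came near the other group, and the log2 fold change was −2.70 ± 0.12. The 10 neighbours of Plagl1 had log2 fold changes from −5.14 to 0.32 with a median of −0.13. Among them 1 was called higher and 3 lower, where 30.5% of all genes were called higher and 29.2% lower. The lowest was Phactr2, which was near 0 in knockout and fell further than Plagl1 itself.

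Dlk1, a membrane and secreted protein of the Notch ligand family that holds back fat cell formation, had 142, 163 and 133 CPM in knockout and 278, 281 and 269 CPM in wild type. The groups were well separated, with a log2 fold change of −0.92 ± 0.079. It lay just past 2-fold lower without knockout replicate 2, which was the highest knockout library for this gene. In its domain on chromosome 12, Rtl1, a gene derived from a retrotransposon and needed in placenta, was barely read. It had 6, 8 and 9 counts in knockout and 1, 2 and 5 counts in wild type. The ratio of its summed counts was 2.71 (95% counting interval 1.17 to 7.005), and it was too low for the test. Meg3 and Rian, maternally read noncoding RNAs of the domain, are not listed.

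Other members read from the paternal copy rose. Slc38a4, an amino acid transporter, had 89.7, 80.6 and 95.3 CPM in knockout, against 52.2, 54.6 and 52.8 CPM in wild type. The groups did not overlap, and its log2 fold change of 0.73 ± 0.072 was the largest rise among the members. The 5 nearest tested genes on each side leaned the other way, with a median of −0.37. Of these 10 genes 0 were called higher and 8 lower, where 30.5% of all genes were called higher and 29.2% lower. Among these neighbours, and named after their values were seen, are Slc38a1 and Slc38a2, its relatives in the same transporter family, at −0.78 ± 0.12 and −0.29 ± 0.067.

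Peg3, a zinc-finger gene tied to maternal care and growth in mouse, had 89.1, 54.7 and 89.5 CPM in knockout, against 52.0, 50.6 and 54.4 CPM in wild type. Knockout replicates 1 and 3 stood well above wild type, and replicate 2 was only just above the highest wild-type library. The log2 fold change was 0.57 ± 0.16, and 0.77 without knockout replicate 2. The call was lost without knockout replicate 3 (0.46), without wild-type replicate 1 (0.56) and without wild-type replicate 2 (0.55). Usp29, a deubiquitinase gene that starts head to head with Peg3, stayed near 0 with 19 counts in knockout and 21 in wild type. Zim1, a maternally read zinc-finger gene of the domain, had 2 counts in knockout and 1 in wild type.

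Knockout replicate 2 was low for long genes in general, and Ube3a, Peg3 and Igf2r are long. Against the mean of knockout replicates 1 and 3 it stood at −0.71 (log2) for Peg3, −0.66 for Ube3a and −0.56 for Igf2r. By the length that the deposited FPKM implies, these genes are 10487, 12409 and 8929 bases long. Over all tested genes the median was 0.25 for 2509 genes under 2 kb, −0.29 for 660 genes of 8 to 10 kb and −0.36 for 888 genes over 10 kb. The other members did not all follow this order. Tssc4 and Commd1 stood at 0.23 and 0.33 in the class of 2 to 4 kb, whose median was 0.08, and Peg12 stood at −0.41 in the same class on 10 to 16 counts a library. Cd81, the shortest tested member, stood at −0.01. Gnas, of 8 to 10 kb, stood at 0.15 and Impact, over 10 kb, at −0.14. The implied length is a single value per gene and may not be that of the transcript read. The part of length in the results was not tested.

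**Figure D3:**
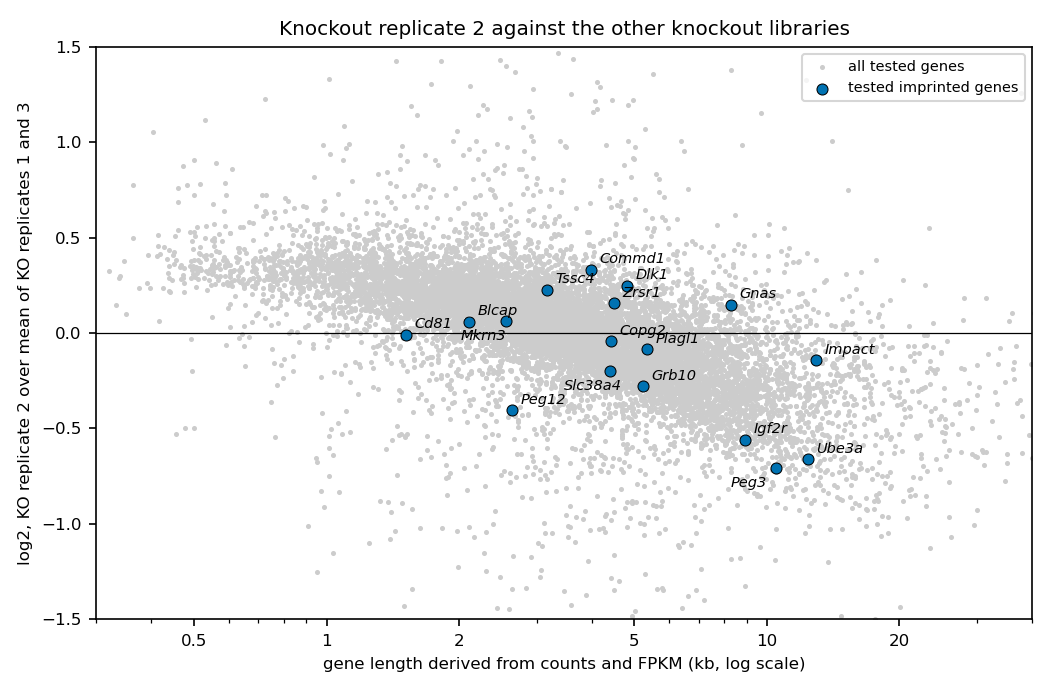
Log2 ratio of knockout replicate 2 to the mean of knockout replicates 1 and 3 against gene length in kb on a log scale, with all tested genes in grey and 17 tested imprinted genes in blue; Ndn and Igf2, with 0 to 5 counts in these libraries, and genes outside the axes are not drawn. Peg3, Ube3a and Igf2r lie at −0.71 to −0.56 at the right, where the grey cloud is also below 0.

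Near the Kcnq1ot1 control region of distal chromosome 7, Cd81 and Tssc4, imprinted in placenta, rose, while the other listed members were near 0. Cd81, a tetraspanin of the cell surface, had 158, 160 and 164 CPM in knockout, against 110, 108 and 110 CPM in wild type, with a log2 fold change of 0.56 ± 0.052. Tssc4 had 17.5, 20.8 and 18.0 CPM in knockout and 13.4, 13.4 and 13.1 CPM in wild type, with a log2 fold change of 0.49 ± 0.092. Neither gene's groups overlapped. The cell cycle inhibitor Cdkn1c had 2 counts in knockout and 0 in wild type. The transporter gene Slc22a18 had 0 counts in knockout and 2 in wild type. The trophoblast factor gene Ascl2 had 3 counts in knockout and 1 in wild type. Kcnq1ot1 itself and Phlda2, a gene that limits placental growth, are not listed.

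On chromosome 2, Gnas, which encodes the stimulatory G protein that raises cAMP, rose. Its transcripts differ in which parental copy is read. It had 978, 1074 and 959 CPM in knockout and 672, 679 and 683 CPM in wild type, with a log2 fold change of 0.57 ± 0.061. Blcap, a cell growth gene that hosts Nnat in an intron, averaged 47.4 ± 2.94 CPM in knockout and 40.5 ± 2.15 CPM in wild type (SD, n = 3 each). Its log2 fold change was 0.23 ± 0.071, and the call was lost without knockout replicate 3 (0.20), wild-type replicate 1 (0.24) or wild-type replicate 3 (0.18). Nnat, a brain proteolipid gene, had 1 count in knockout and 0 in wild type. Genes around both domains leaned up. The median over 10 neighbours was 0.27 beside Gnas and 0.20 beside Blcap. Each set had 6 called higher and 1 lower, where 30.5% of all genes were called higher and 29.2% lower.

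The remaining tested members are Copg2, Zrsr1, Commd1 and Impact. Copg2, a coat protein subunit of Golgi vesicles, averaged 53.8 ± 1.76 CPM in knockout and 68.1 ± 4.15 CPM in wild type, and fell by 0.34 ± 0.065 on the log2 scale. Mest, its paternally read partner and a hydrolase-like gene that is high in embryonic mesoderm, had 2 counts in knockout and 0 in wild type. Zrsr1, a splicing factor gene placed in an intron of Commd1, averaged 32.7 ± 2.09 CPM in knockout and 26.3 ± 1.52 CPM in wild type, with a log2 fold change of 0.32 ± 0.077. Commd1, a copper and endosome trafficking gene, averaged 33.9 ± 5.27 CPM in knockout and 30.2 ± 0.595 CPM in wild type. Its log2 fold change was 0.17 ± 0.11 (95% interval −0.07 to 0.41) and was not called, but without knockout replicate 1 it was 0.28 and called. Impact, a regulator of translation under amino acid shortage, averaged 302 ± 17.0 CPM in knockout and 292 ± 6.55 CPM in wild type. Its log2 fold change was 0.05 ± 0.061 (95% interval −0.09 to 0.19) and was not called, but without knockout replicate 2 it was 0.10 and called.

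Some members were not detectable at this depth. In the Peg10 and Sgce domain of chromosome 6, the retrotransposon-derived Peg10 had 1 count in knockout and 0 in wild type. Sgce, of the dystrophin complex, and Ppp1r9a, an actin binding protein of synapses, each had 2 counts in knockout and 0 in wild type. In all, 9 of the 12 listed members that were too low for a test had 1 to 4 counts over the 6 libraries. The table holds 0 genes with no count in every library, so a gene read nowhere would not be listed. It also holds 6 genes that RefSeq annotates as lncRNA, and the noncoding members H19, Airn, Kcnq1ot1, Meg3 and Rian, like Magel2, Phlda2 and Nap1l5, were not analysed here.

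By expressed copy, 10 of the 21 members read from the paternal copy were tested. Of these 3 rose (Peg3, Slc38a4 and Zrsr1), 6 fell (Ndn, Mkrn3, Peg12, Igf2, Plagl1 and Dlk1) and 1 was not called. Their median log2 fold change was −0.84. Of 9 members read from the maternal copy a single gene, Igf2r, was tested, so the parental classes could not be set against each other. The 5 tested members that are maternal in some tissues held 2 rises (Tssc4 and Cd81) and 2 falls (Ube3a and Copg2), with a median of 0.17. The 3 whose copy depends on isoform or tissue held 2 rises (Gnas and Blcap) and 0 falls. These counts stand beside 30.5% of all genes called higher and 29.2% lower. As the members were chosen with their fold changes known, nothing is read from the counts or medians of a class.

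Per unit of the length that the deposited FPKM imply, the order of levels differed between the groups in a few places. That length may not be that of the transcript read, as for Gnas with its several transcripts, so the order between genes is approximate. In knockout the highest deposited FPKM were 122 ± 8.20 for Gnas, 106 ± 1.45 for Cd81, 95.9 ± 9.86 for Grb10 and 48.3 ± 9.85 for Igf2r (SD, n = 3). Cd81 and Grb10 lay within their spread of each other. In wild type they were 88.6 ± 0.758 for Grb10, 87.7 ± 1.47 for Igf2r, 81.6 ± 0.715 for Gnas and 71.6 ± 0.797 for Cd81. Grb10 and Igf2r lay within their spread of each other. Dlk1 followed at 30.4 ± 3.44 FPKM in knockout and 57.0 ± 1.32 FPKM in wild type. Ndn stood at 0.0111 ± 0.0192 FPKM in knockout and 15.2 ± 1.06 FPKM in wild type, where it was close to Copg2 (15.3 ± 0.939 FPKM).

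**Figure D4:**
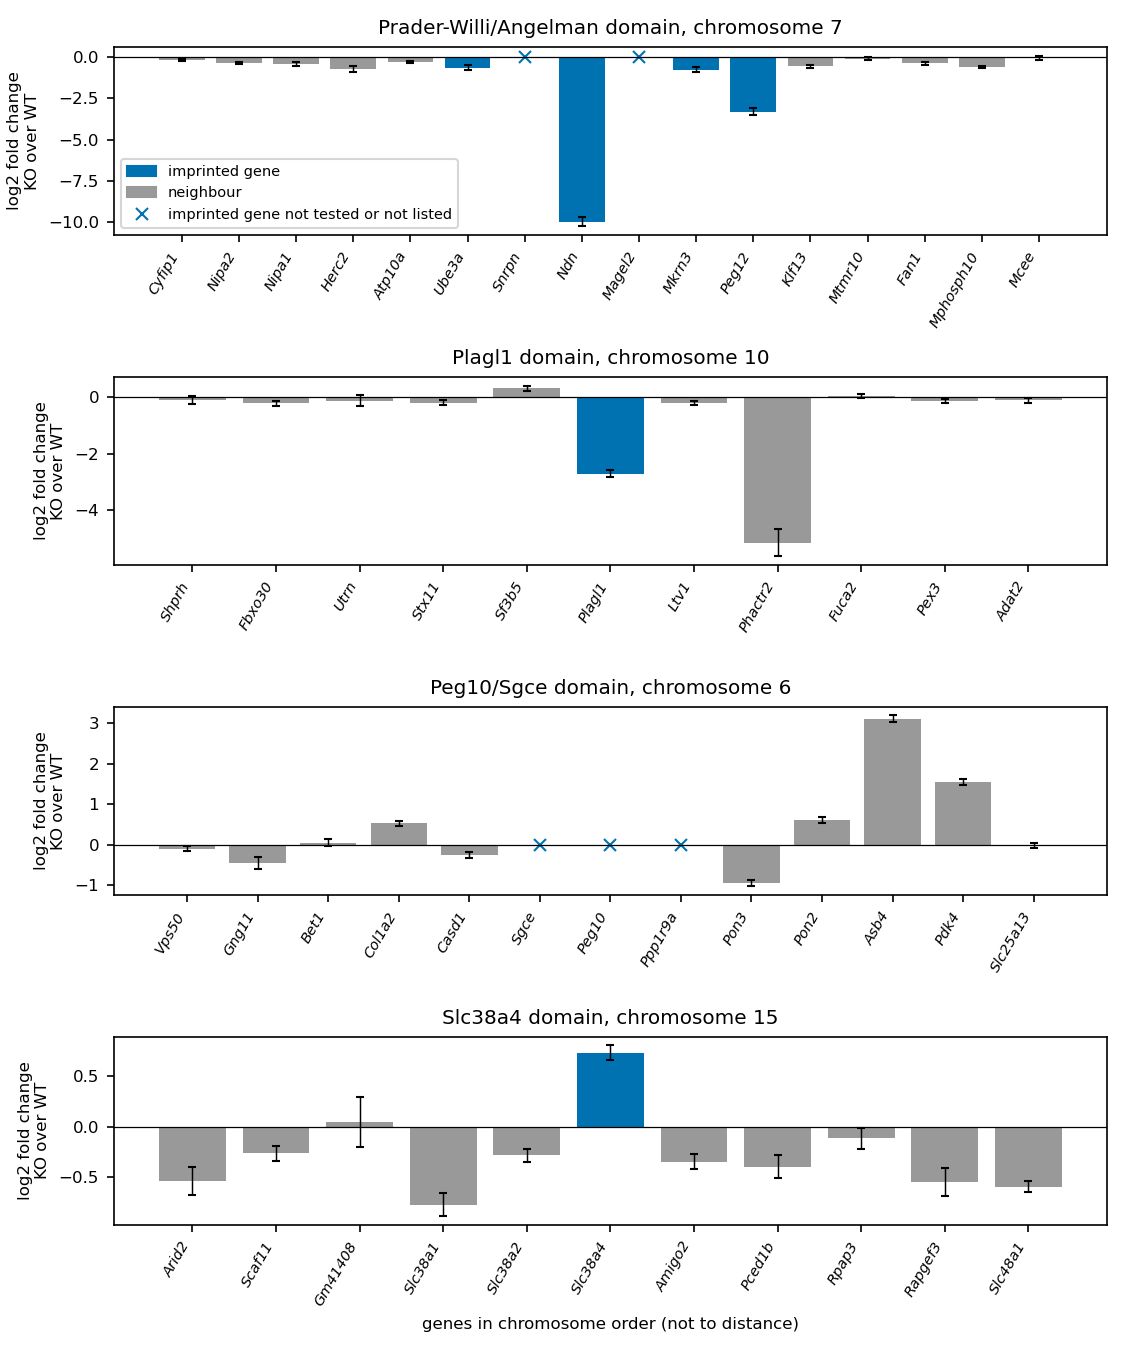
Log2 fold change of knockout over wild type, with SE bars, for members in blue and the 5 nearest tested genes on each side that are no members in grey. Genes are in chromosome order and not to distance, for 4 domains with an axis each, and crosses mark members with no test. The grey genes include Atp10a, Casd1, Pon2, Pon3 and Asb4, which are on the list of other imprinted genes. Ndn and Peg12 stand far below neighbours that reach −0.73 at most, and Slc38a4 is positive among neighbours with a median of −0.37. In the Plagl1 panel the neighbour Phactr2, at −5.14, is below Plagl1.

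Imprinted genes outside the member list, listed from textbook knowledge, also moved in both directions. Whether each is imprinted in these cells was not measured. Of 53 such genes 35 were listed and 22 tested, with 11 higher, 8 lower and 3 not called in edgeR's quasi-likelihood test, and a median log2 fold change of 0.14. This share is set beside the same 59.6% of all genes. Asb4, a ubiquitin ligase adaptor gene on the far side of Pon3 and Pon2 from Peg10 and Sgce, had 84.9, 81.2 and 86.3 CPM in knockout, against 9.36, 11.0 and 8.90 CPM in wild type. The libraries of each group were close together and the groups far apart, with a log2 fold change of 3.11 ± 0.085. In the same cluster Pon2, a paraoxonase, rose by 0.61 ± 0.072 and its relative Pon3 fell by 0.96 ± 0.071 on the log2 scale.

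Sfmbt2, a Polycomb protein gene needed in placenta, averaged 26.9 ± 4.43 CPM in knockout and 12.4 ± 0.570 CPM in wild type, and rose by 1.12 ± 0.13 on the log2 scale. The signal peptide peptidase gene H13 rose by 0.77 ± 0.070. Htr2a, a serotonin receptor gene, had 6, 11 and 3 counts in knockout, against 52, 70 and 57 counts in wild type, and fell by 3.23 ± 0.34 on the log2 scale. The matrix proteoglycan decorin, Dcn, fell by 0.89 ± 0.063, and averaged 1701 ± 105 CPM in knockout and 3157 ± 50.2 CPM in wild type. Begain, next to Dlk1, fell by 0.62 ± 0.19, a call that was lost without knockout replicate 3 (−0.55) or wild-type replicate 2 (−0.47).

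Factors that keep or read imprints shifted by less than 2-fold. Of 22 such genes 20 were listed and 19 tested, with 4 higher, 5 lower and 10 not called, beside 59.6% of all genes called. Without knockout replicate 2, 5 were higher and 11 lower, and without wild-type replicate 1, 3 were higher and 3 lower. Calls over all genes moved as well. With all libraries 3646 were higher and 3490 lower of 11972 tested. Without knockout replicate 2 these were 4350 and 4236 of 12082, and without wild-type replicate 1 they were 3091 and 3026 of 12100. Nothing is read from the factors' counts. Zfp57, the zinc-finger protein that binds methylated imprinting control regions, averaged 46.3 ± 5.86 CPM in knockout and 54.1 ± 1.52 CPM in wild type (SD, n = 3 each). Its log2 fold change was −0.22 ± 0.088 and was not called, though it was with DESeq2 (−0.24), with RLE size factors (−0.24) and without knockout replicate 2 (−0.33). Its partner Trim28 stood at −0.09 ± 0.061 and the maintenance methyltransferase gene Dnmt1 at −0.20 ± 0.082. Neither was called with all libraries. Both were called without knockout replicate 2 (−0.14 and −0.11), and Dnmt1 also without knockout replicate 3 (−0.25). Zfp445, which works beside ZFP57, fell by 0.51 ± 0.11. The insulator gene Ctcf fell by 0.28 ± 0.076, a call that was lost without wild-type replicate 1 (−0.26). Arid4b, a factor tied to imprinting at the Snrpn region, fell by 0.84 ± 0.091. The factors that rose most were Uhrf1, which brings DNMT1 to replicated DNA (0.57 ± 0.072), and the histone methyltransferase genes Setdb1 (0.39 ± 0.059) and Ehmt2 (0.37 ± 0.052).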

How the data were processed

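Messenger RNA of 3 RAI16 knockout and 3 wild-type NIH3T3 samples was sequenced, and samples were grouped by their titles. The authors deposited raw read counts per gene, and separately FPKM values for the same genes. The submitters' processing notes name the build GRCm39 and the tools HISAT2, HTSeq, Cufflinks, Trimmomatic and DESeq, and no version or strand setting is given in the sources used here. Reads of overlapping genes, such as Zrsr1 within Commd1, may be shared. Counts were filtered with filterByExpr, scaled by TMM and tested with edgeR 4.0.16 (R 4.3.3) over 11972 genes, with no block and Benjamini-Hochberg adjustment. SE is the size of the log2 fold change over the square root of F. Count ratios have exact binomial 95% intervals, which cover counting error only. Gene order and promoter windows come from RefSeq for GRCm38.p6, and 15905 of 16000 gene numbers matched. The members and lists were chosen with earlier results of these data known. The rule named every member, the 8 other imprinted genes and 5 factors with the largest called changes, and Zfp57, Trim28, Dnmt1 and Ctcf. Alternatives were DESeq2 1.42.0, RLE size factors, library totals only, other filters, a replicate block and leaving out each library.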

Additional observations from a re-analysis of the deposited data

How the results depend on the processing

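The counts of members called were 7 higher and 9 lower with DESeq2, RLE size factors, library totals only, a minimum mean of 1 CPM and the replicate block; with no filter on low counts Snrpn was added, giving 10 lower and 5 lower by 2-fold or more. Leaving out 1 library at a time gave 5 to 9 members higher, 9 lower throughout, 4 or 5 lower by 2-fold or more and 0 higher by 2-fold or more. Other imprinted genes numbered 9 to 11 higher and 7 or 8 lower, and imprint factors 3 to 5 higher and 3 to 11 lower. For the factors the highest counts were without knockout replicate 2 and the lowest without wild-type replicate 1. Calls over all genes also rose without knockout replicate 2 and dropped without wild-type replicate 1, and the cause was not tested. No gene given with a log2 fold change from the fit changed sign under DESeq2, another scaling or filter, the block or the loss of a library. Same-numbered libraries of the groups did not deviate together (correlations −0.07, −0.09 and 0.02), so the numbers were not taken to pair them, and the block left 7 members higher and 9 lower. Taking 10 neighbours on each side in place of 5, chosen after seeing the data, moved the median beside the Prader-Willi and Angelman domain to −0.33 and beside Slc38a4 to −0.19. Of these 20 genes 1 was called higher and 13 lower beside the first, with log2 fold changes from −1.43 to 0.37. Beside Slc38a4 3 were called higher and 10 lower, from −1.37 to 1.94.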

Other observations

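Of 150 tested genes beside or between the imprinted domains, 86 were called in edgeR's quasi-likelihood test. By 2-fold or more 14 differed, 6 higher and 8 lower in knockout. Over all genes tested 59.6% were called, and 4.32% were higher and 6.53% lower by 2-fold or more. Nothing is read from the neighbours' share, and some of the 150, such as Asb4, are on the list of other imprinted genes. All 14 are given here, and they were picked for their size after their values were seen. Phactr2, a regulator of phosphatase and actin, lies second to the right of Plagl1. It had 0, 2 and 1 counts in knockout and 42, 38 and 32 counts in wild type, and the ratio of its summed counts, knockout over wild type, was 0.0252 (95% counting interval 0.00513 to 0.0757). Ltv1, which lies between Plagl1 and Phactr2, stood at −0.22 ± 0.073 on the log2 scale, a call lost without knockout replicate 1 or 3 or wild-type replicate 1 or 2 (−0.21, −0.17, −0.21 and −0.20).

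Herc3, whose intron holds the unlisted Nap1l5, had 2, 3 and 1 counts in knockout and 31, 34 and 45 counts in wild type, with a ratio of 0.0514 (95% counting interval 0.0185 to 0.115). Near Grb10, Spata48 had 0, 2 and 0 counts in knockout and 16, 20 and 23 counts in wild type. Also there, Zpbp had 1, 0 and 2 counts in knockout and 10, 18 and 20 in wild type, and Plek, a substrate of protein kinase C in blood cells, had 3, 5 and 1 counts in knockout and 26, 28 and 25 in wild type. These genes were near 0 in knockout and low in wild type. The semaphorin receptor gene Plxna4, near Copg2, stood at −2.00 ± 0.19 on the log2 scale, Lsp1, near Igf2, at −1.86 ± 0.091 and Zfp521, near Impact, at −1.23 ± 0.082.

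Among those higher in knockout, Asb4 is described above. Zfp583, near Peg3, had 35, 32 and 36 counts in knockout and 3, 1 and 8 counts in wild type. Otx1, a homeobox gene near Commd1, stood at 1.88 ± 0.31 on the log2 scale. The transglutaminase gene Tgm2, near Blcap, stood at 1.54 ± 0.099 and Acat2, near Igf2r, at 1.15 ± 0.077. Pdk4, a mitochondrial kinase gene next to Asb4, had 145, 122 and 145 CPM in knockout and 45.8, 46.3 and 49.0 CPM in wild type, and its log2 fold change was 1.55 ± 0.080.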
